A study of Mus musculus with 6 samples.

Results

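The extracellular metalloproteinase families and their inhibitors were described in the condylar cartilage of mice: the matrix metalloproteinases (Mmp), the Adam and Adamts proteinases, the Adamts-like proteins (Adamtsl) and the tissue inhibitors of metalloproteinases (Timp). Members were chosen by gene symbol, and 83 of the 24346 symbols in the tables belonged to these families. They were 22 Mmp, 33 Adam, 19 Adamts, 5 Adamtsl and 4 Timp genes, with Mmp13 left out. In all, 70 members reached at least 1 FPKM (a fragment count scaled by transcript length and library size) in at least 3 of the 6 libraries and were compared between the groups. The other 13 stayed below that limit, and none of the 83 was at 0 in every library.

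The condylar cartilage is the growth cartilage on the jaw side of the temporomandibular joint. It was dissected from control mice labelled fl/fl, the usual notation for a gene flanked by recombination sites, and from mutants described by the submitters as lacking Indian hedgehog (Ihh) in craniofacial neural crest cells, with 3 libraries per group. The submitters checked the mutants by expression of Ihh, Cre and Tomato. The labels give no strain, age, sex or driver of recombination, and do not say whether the controls carried Cre. They speak of both control and both mutant groups without saying what these are. Whether each library is a different animal is not stated either, and the p-values cover only the variation among these 6 libraries, part of which may be technical.

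In mice, many Mmp proteins are made as latent enzymes and cut collagens and other matrix proteins once a propeptide is removed. Adam proteins sit in the plasma membrane, where some of them release growth factors and receptors from the cell surface, whereas Adamts proteins are secreted and cleave proteoglycans such as aggrecan or trim procollagens. Adamtsl proteins resemble the non-catalytic part of Adamts proteins and bind to microfibrils, and Timp proteins block the active site of many of these enzymes. In growth cartilage these activities remove aggrecan and collagen where cartilage is replaced by bone.

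The catalytic members share a zinc-binding site with 3 histidines, and its coding sequence is shown because it divides the families into proteinases and members without this site. Coding sequences from GENCODE release M21 (GRCm38, the same assembly as the mm10 build of the submitters' processing notes) were searched in frame for this site, with glycine or asparagine as its eighth residue. The search found it in 60 of the 79 members outside the Timp family, once in each. All 22 Mmp genes held it, as did 20 of 33 Adam genes and 18 of 19 Adamts genes, and none of the 5 Adamtsl genes did. The form with asparagine occurred in 5 members, all of them Adamts genes (Adamts1, Adamts4, Adamts9, Adamts15 and Adamts20), and the other 55 had the form with glycine. The sites below are from the most abundant Mmp genes and from Adam and Adamts genes described later, each 33 bases from 5′ to 3′ on the coding strand. Capitals mark the codons of the 3 histidines and of the eighth residue.
Mmp2: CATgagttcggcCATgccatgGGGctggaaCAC
Mmp9: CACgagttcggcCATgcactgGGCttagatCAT
Mmp14: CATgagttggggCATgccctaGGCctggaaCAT
Adam15: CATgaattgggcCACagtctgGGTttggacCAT
Adam17: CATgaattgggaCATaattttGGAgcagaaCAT
Adamts5: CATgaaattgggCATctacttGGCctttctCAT
Adamts18: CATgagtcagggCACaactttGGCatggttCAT
Adamts4: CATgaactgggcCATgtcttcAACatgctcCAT
Adamts20: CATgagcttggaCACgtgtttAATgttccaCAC

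These stretches lie in Mmp2 (chromosome 8, 92827291 to 92853420, plus strand), Mmp9 (chromosome 2, 164940780 to 164955850, plus strand), Mmp14 (chromosome 14, 54431612 to 54445364, plus strand) and Adam15 (chromosome 3, 89338542 to 89349996, minus strand). The others lie in Adam17 (chromosome 12, 21323509 to 21373632), Adamts5 (chromosome 16, 85856173 to 85901828), Adamts18 (chromosome 8, 113697126 to 113848738) and Adamts20 (chromosome 15, 94270163 to 94465418), all on the minus strand. Adamts4 lies on the plus strand of chromosome 1, from 171250421 to 171260637. The site begins at codon 403 in Mmp2, 401 in Mmp9, 239 in Mmp14, 349 in Adam15 and 424 in Adam17. The asparagine codon is seen in Adamts4 and Adamts20 in place of the glycine codon of the other 7. Adamts8 held neither form, which says only that these letters were not found in its coding sequence.

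The number of fragments per library is unknown. As a measure of background, the 90th percentile of 1102 olfactory receptor genes, a class read mainly in the nose, was 6.49 to 8.58 FPKM. In every library, 51 of the 83 members lay below that percentile, among them 38 of the 70 compared. Ihh measured 2.51 to 3.74 FPKM in the controls and 2.18 to 2.66 FPKM in the mutants, so that the groups overlapped and its own level does not show the deletion. Its target Gli1 measured 7.10 to 9.53 and 0.168 to 0.807 FPKM. The sexes were unequal: Xist was at 29.5, 29.2 and 0.608 FPKM in controls 1, 2 and 3, in that order, and at 0.577 to 0.984 FPKM in the mutants. Chondrocyte markers (9 of 10 found) summed to 345 to 472 FPKM in the controls and 134 to 190.0 FPKM in the mutants. Skeletal muscle markers (18 of 18) summed to 5181 to 12764 and 20694.5 to 37869.5 FPKM, and endothelial markers (12 of 12) to 117 to 192 and 315 to 365 FPKM. In bulk tissue, fewer cells of a type and less RNA per cell cannot be told apart. The part of these shifts in the values below was not tested. Mean log2 muscle marker level, used below as a covariate, was 6.56 to 7.58 in the controls and 8.32 to 9.36 in the mutants. These ranges do not overlap, so fits with this covariate can hardly separate group from muscle level. A larger or smaller difference in those fits is therefore not read as a result.

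None of the 70 members passed the test, a limma adjusted p below 0.05, while 1.24% of the 18715 genes tested did. At an unadjusted p below 0.05 there were 10 members, 7 with higher and 3 with lower values in mutants, where 14.1% of all genes tested passed, 7.94% with higher and 6.11% with lower values. The groups did not overlap in 14 members (20.0%), against 19.2% of all genes tested. In 8 of them every mutant value lay above every control value, which held for 9.77% of all genes, and in 6 every mutant value lay below, which held for 9.4%. The median log2 fold change over the 70 members was 0.04, and that of all genes tested was 0.00085. All log2 fold changes are of FPKM + 1, which makes those of weakly expressed genes too small. The members nearest to the threshold were Adamtsl5 and Adam15, with adjusted p of 0.0705 and 0.0755. A p above the threshold does not show that levels were equal, and the 95% intervals below give the range that these libraries allow.

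**Figure D1:**
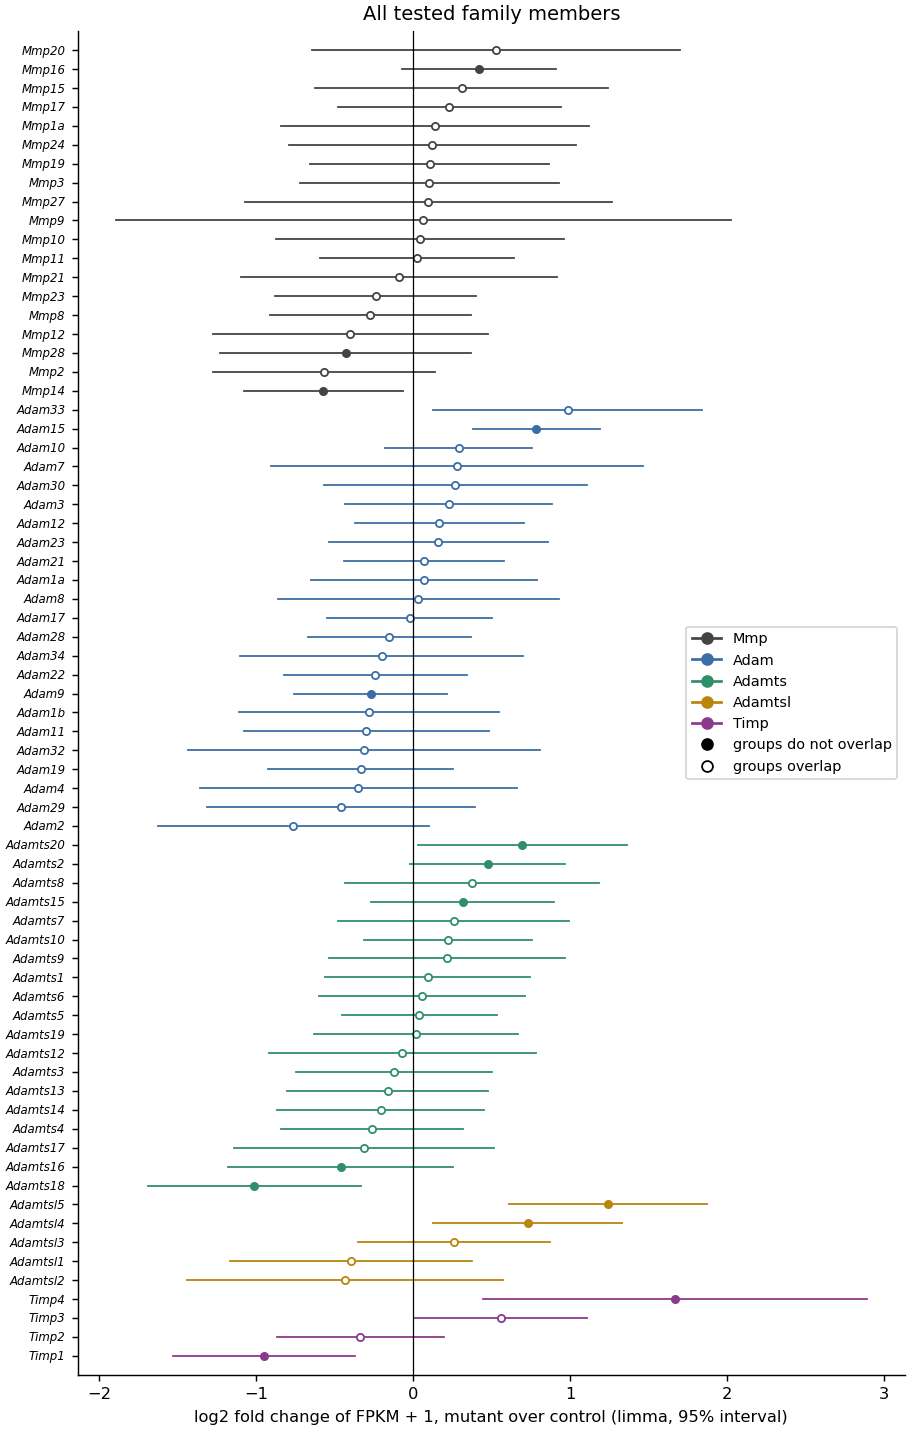
Log2 fold change of FPKM + 1 in mutant over control cartilage for the 70 members compared, by family, with 95% intervals from limma (lines); filled points mark the 14 members whose groups did not overlap. The values run from -1.01 for Adamts18 to 1.67 for Timp4, and 60 of the 70 intervals include 0.

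A few members stood far above the rest in level. Means over all 6 libraries were at least 100 FPKM for 5 members, which were Mmp2 at 289.9, Timp2 at 191, Mmp9 at 160.1, Mmp14 at 158 and Timp1 at 116 FPKM. Another 13 lay between 10 and 100 FPKM, led by Timp3 at 67.8, Mmp23 at 53.7 and Adam15 at 25.4 FPKM. The remaining 65 were under 10 FPKM. Neighbours in the order of the 5 leading members overlapped in range over the libraries.

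**Figure D2:**
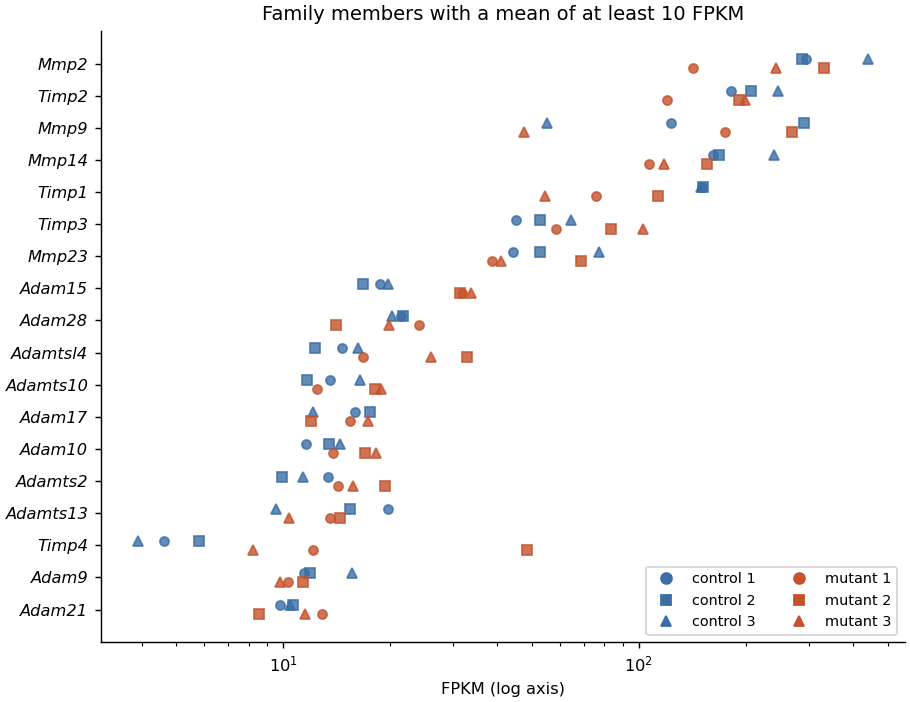
FPKM on a log axis of the 18 members with a mean of at least 10 FPKM, 1 point per library, controls in blue and mutants in red. Mmp9 spreads from 47.6 to 290.2 FPKM across both groups, while Timp1 is at 149.9 to 151 FPKM in the controls and 54.4 to 113 FPKM in the mutants.

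Mmp2, Mmp9 and Mmp14 together carried 80.5% to 87.5% of the summed Mmp level in each library, a sum without Mmp13. Mmp2, a gelatinase made by connective tissue cells, measured 295, 287 and 441 FPKM in controls 1, 2 and 3, in that order, and 142, 332 and 243 FPKM in mutants 1, 2 and 3. The groups overlapped through mutant 2, and the difference ran from -0.23 without mutant 1 to -1.21 with muscle marker level as a covariate (with all libraries and no covariate, log2 fold change -0.57 ± 0.31 (SE), 95% interval from -1.27 to 0.14, limma adjusted p = 0.494). Mmp14, the membrane-anchored proteinase that activates Mmp2 at the cell surface, measured 161, 167 and 239.8 FPKM in the controls and 107, 155 and 118 FPKM in the mutants. All 3 mutants lay below all 3 controls, with means of 189 ± 43.6 and 127 ± 25.1 FPKM (SD, n = 3 per group), but the difference did not pass the test (log2 fold change -0.57 ± 0.22, 95% interval from -1.08 to -0.07, adjusted p = 0.287). With Xist or muscle marker level as a covariate the difference was -0.94 or -1.18 (limma adjusted p of 0.300 and 0.707). In both genes control 3 was the highest and mutant 1 the lowest library. Fibrous layer and tendon markers (12 of 12 found, none at 0) summed to 3030 to 4267 FPKM in the controls and 1762 to 3066 FPKM in the mutants, and their part in these values was not tested. The members of that list did not move together: Postn was at 959.9 and 266 FPKM in the group means, whereas Prg4, Scx, Dcn and Pdgfra had positive log2 fold changes of 2.07, 0.66, 0.39 and 0.33.

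Mmp9, the gelatinase known from osteoclasts and neutrophils, varied more within the groups than any other of the 37 members with a mean of at least 5 FPKM. It measured 123, 290.2 and 55.2 FPKM in the controls and 175, 269.7 and 47.6 FPKM in the mutants. The highest library was 5.26 times the lowest among controls and 5.66 times among mutants, and the groups overlapped almost fully (log2 fold change 0.06 ± 0.81, 95% interval from -1.89 to 2.02, limma adjusted p = 0.986). Osteoclast markers (10 of 10 found, none at 0 in any library) summed to 624, 1135 and 375 FPKM in the controls and 1214, 1820.4 and 429.8 FPKM in the mutants. Control 3 and mutant 3 were the lowest libraries for Mmp9 as for these markers, and control 1 came next for both. The order of the other 3 differed, since Mmp9 was highest in control 2 and these markers in mutant 2. The osteoclast proteinase Ctsk alone measured 377, 681 and 232 FPKM in the controls and 703, 1043 and 252 FPKM in the mutants. Neutrophil markers (10 of 10 found, 4 at 0 in at least 1 library) summed to 128 to 209 FPKM in the controls and 134 to 727 FPKM in the mutants. Control 2, the library with the most Mmp9, had 135 FPKM of them. Macrophage markers (12 of 12 found, 2 at 0 in at least 1 library) summed to 134 to 156 FPKM in the controls and 135 to 289.7 FPKM in the mutants. The part of these cell types in the Mmp9 level was not tested.

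**Figure D3:**
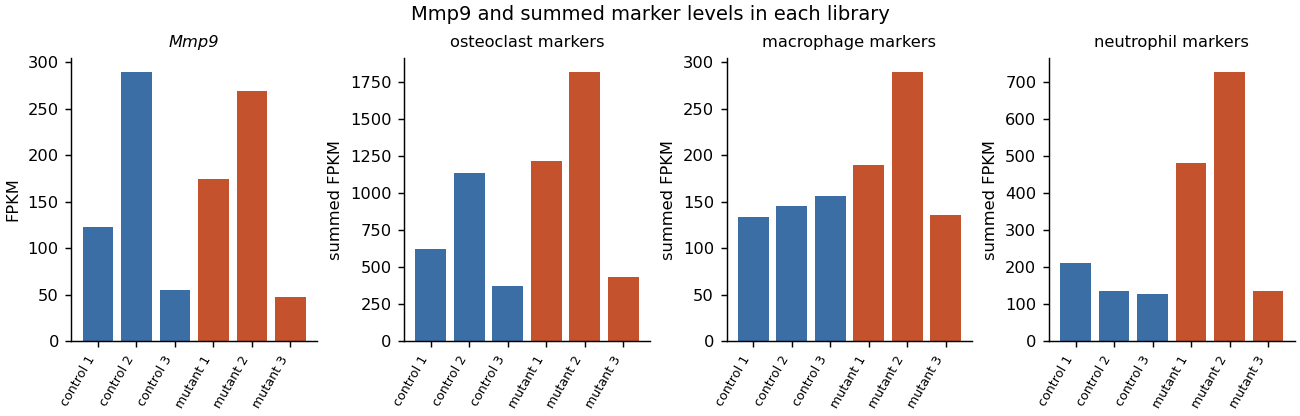
Level of Mmp9 in FPKM and summed FPKM of osteoclast, macrophage and neutrophil markers in each of the 6 libraries, controls in blue and mutants in red, without error bars since each bar is 1 library. Mmp9 and the osteoclast markers are both lowest in control 3 and mutant 3, at 55.2 and 47.6 FPKM for Mmp9.

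Among the other Mmp genes, Mmp23, a membrane-inserted proteinase, was the fourth most abundant, at 44.3, 52.6 and 77.2 FPKM in the controls and 38.7, 68.5 and 40.9 FPKM in the mutants. Mmp16, a membrane-anchored relative of Mmp14, was at 6.05, 6.09 and 6.94 FPKM in the controls and at 9.09, 8.49 and 8.91 FPKM in the mutants. Its mutant values all lay above the controls (log2 fold change 0.42 ± 0.22, limma adjusted p = 0.449), the opposite order to Mmp14. Mmp28 was at 1.69 to 1.77 FPKM in the controls and 0.551 to 1.35 FPKM in the mutants, without overlap, at levels below the olfactory percentile in every library. The collagenase genes read here, which do not include Mmp13, were low. Means were 5.13 FPKM for Mmp8, 2.23 FPKM for Mmp1a, which GENCODE lists as a polymorphic pseudogene, and 0.357 FPKM for Mmp1b. On chromosome 9, between 7344381 and 7699585, lie 9 Mmp genes in a row (Mmp12, Mmp1b, Mmp3, Mmp1a, Mmp10, Mmp8, Mmp27, Mmp20 and Mmp7). Their means ran from 0.357 to 5.43 FPKM, 7 were compared, and none of these separated the groups. Mmp1b and Mmp12 overlap in their exons on opposite strands, and Mmp1a and Mmp1b are close copies, so their low values are uncertain.

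None of the 4 inhibitors passed the test. Timp1 was lower and Timp4 higher in every mutant than in any control, whereas Timp2 and Timp3 overlapped. Timp1, a secreted inhibitor of most Mmp enzymes, measured 151, 151 and 149.9 FPKM in the controls and 75.6, 113 and 54.4 FPKM in the mutants. Its controls were nearly equal, at 150.6 ± 0.759 FPKM (SD, n = 3), and all mutants lay below them, at 81.1 ± 29.9 FPKM (SD, n = 3; log2 fold change -0.95 ± 0.26, 95% interval from -1.53 to -0.37, limma adjusted p = 0.121). With muscle marker level as a covariate the difference was -1.79 (limma adjusted p = 0.679). Timp1 lies on the X chromosome, from 20870166 to 20874735. Control 3, the control of the same Xist state as the mutants, was at 149.9 FPKM, beside 151 FPKM in controls 1 and 2. The part of the unequal sexes in the Timp1 level was not tested. Timp2, which inhibits Mmp2 and also takes part in its activation with Mmp14, measured 181, 207 and 246 FPKM in the controls and 119.8, 191 and 199 FPKM in the mutants, and the groups overlapped (adjusted p = 0.626).

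Timp3, which binds to the matrix and inhibits several Adam and Adamts enzymes, measured 45.3, 52.6 and 64.6 FPKM in the controls and 58.4, 83.3 and 102 FPKM in the mutants. Mutant 1 lay below control 3 (log2 fold change 0.56 ± 0.24, 95% interval from 0.01 to 1.11, limma adjusted p = 0.348). Timp4 was the least abundant, at 4.61, 5.80 and 3.89 FPKM in the controls and 12.1, 48.4 and 8.19 FPKM in the mutants. All mutants lay above all controls, and mutant 2 stood far above the other 2 (log2 fold change 1.67 ± 0.54, 95% interval from 0.44 to 2.89, adjusted p = 0.192). Without mutant 2 the difference was 0.94, and with muscle marker level as a covariate it was 0.16. Exons of Timp3 and Timp4 overlap Syn3 and Syn2 on the other strand, and the libraries keep no strand. Syn2 measured 3.71 to 6.87 FPKM in the 6 libraries and 5.34 FPKM in mutant 2, and Syn3 measured 5.72 to 9.70 FPKM. Adipocyte markers, a list added after the values of Timp4 were seen (10 of 10 found, 2 at 0 in at least 1 library), summed to 182 to 454 FPKM in the controls and to 866, 874 and 457 FPKM in mutants 1, 2 and 3. Fabp4 and Car3 made up most of that sum, at 669 and 168 FPKM in mutant 2. Other markers of the list did not follow: Adipoq was at 10.2 FPKM in control 3 and 3.96 FPKM in mutant 2, and Lep was lower in every mutant than in any control. Their part in the Timp4 level was not tested.

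Timp1 made up 32.3% to 39.4% of the summed Timp level in controls and 14.9% to 28.4% in mutants. Timp3 made up 11.9% to 13.9% in controls and 19.1% to 28.1% in mutants, and Timp2 was the largest share in every library, at 43.9% to 54.7%. The ratio of Timp3 to Timp1 was 0.301, 0.347 and 0.431 in controls and 0.773, 0.735 and 1.88 in mutants. Timp3 exceeded Timp1 in mutant 3 only. These shares were chosen after the values were seen and carry no test. The summed Timp level divided by the summed Mmp level, again without Mmp13, was 0.490 to 0.568 in controls and 0.499 to 0.717 in mutants. These ranges overlapped.

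**Figure D4:**
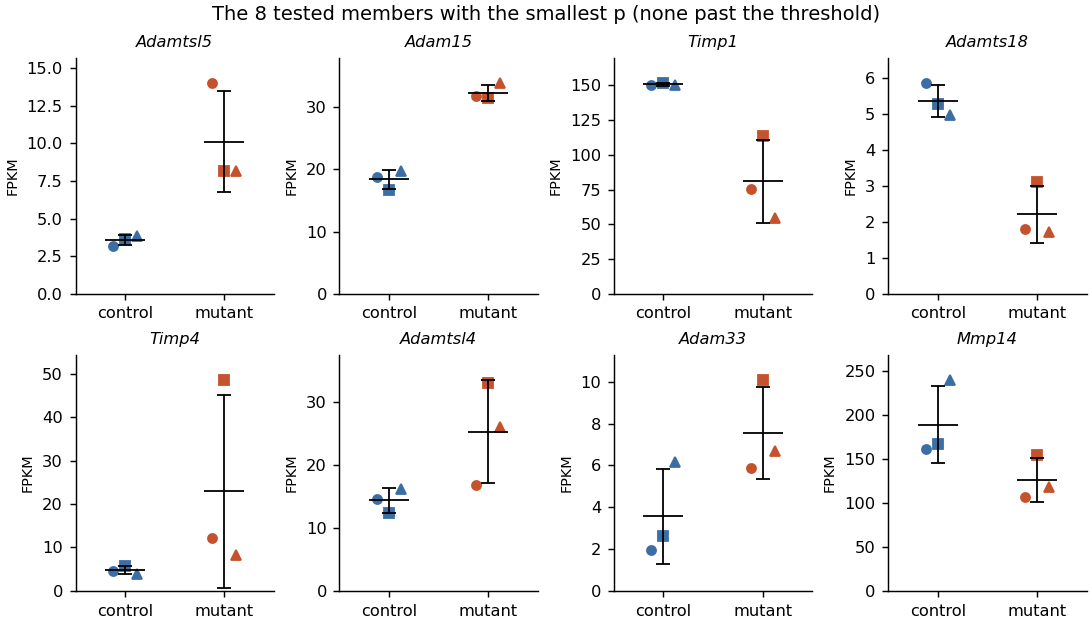
FPKM in each library for the 8 members with the smallest p, with the mean and SD of 3 libraries per group (black); symbols mark replicates 1 (circle), 2 (square) and 3 (triangle). The groups overlap only for Adam33, and Timp4 is spread from 8.19 to 48.4 FPKM in the mutants.

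Adam15, a membrane proteinase with a disintegrin domain that is known from endothelial and other cells, was the most abundant Adam gene. It measured 18.8, 16.8 and 19.7 FPKM in the controls and 31.7, 31.4 and 33.8 FPKM in the mutants. Both groups were tight, at 18.4 ± 1.51 and 32.3 ± 1.29 FPKM (SD, n = 3 each), and the fold of means was 1.76 (log2 fold change 0.78 ± 0.18, 95% interval from 0.38 to 1.19, limma adjusted p = 0.0755). With only genes at 5 FPKM or more in at least 3 libraries tested, Adam15 passed, at an adjusted p of 0.048. Against control 3 alone, the control of the same Xist state as the mutants, the log2 fold change was 0.69 (adjusted p = 0.542). Exons of Adam15 overlap those of a gene on the opposite strand, 4731419I09Rik. The endothelial markers given above were higher in the same libraries, and their part was not tested.

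For the principal shedding enzymes of the cell surface the intervals included 0. Adam17, which releases tumour necrosis factor and ligands of the epidermal growth factor receptor, measured 15.9, 17.5 and 12.1 FPKM in the controls and 15.4, 11.998 and 17.3 FPKM in the mutants (log2 fold change -0.02 ± 0.23, 95% interval from -0.55 to 0.50, limma adjusted p = 0.982). Adam10, which cleaves Notch receptors, measured 11.6 to 14.4 FPKM in the controls and 13.8 to 18.2 FPKM in the mutants (log2 fold change 0.29 ± 0.21, 95% interval from -0.18 to 0.76). Adam9 was at 11.4, 11.9 and 15.6 FPKM in the controls and 10.3, 11.3 and 9.78 FPKM in the mutants, without overlap, in a difference far from the threshold (adjusted p = 0.683). Adam28, known from lymphocytes, was the second most abundant Adam gene, at 20.2 to 21.7 FPKM in the controls and 14.1 to 24.1 FPKM in the mutants. Adam12 and Adam19, known from muscle, bone and heart development, were at means of 8.81 and 6.25 FPKM, with log2 fold changes of 0.17 and -0.33. Adam33 measured 1.93, 2.60 and 6.17 FPKM in the controls and 5.89, 10.1 and 6.70 FPKM in the mutants. Control 3 lay among the mutants, and the log2 fold change of 0.98 (limma adjusted p = 0.280) was 0.23 with Xist as a covariate, 0.22 against control 3 alone and 0.01 with muscle marker level as a covariate.

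Of 21 Adam genes known from testis or epididymis in mice, 11 passed the filter and all but 1 had a mean under 10 FPKM, the exception being Adam21 at 10.6 FPKM. The 13 Adam genes in which no zinc-binding site was found had a median of the mean level of 2.18 FPKM and a highest mean of 7.05 FPKM (Adam29). The 20 with a site had a median of 4.66 FPKM and a highest mean of 25.4 FPKM. Adam1a and Adam1b, Adam6a and Adam6b, and Adam26a and Adam26b are pairs of close copies whose reads may be split between them, and exons of Adam1a overlap other genes on both strands.

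Among the Adamts genes, those known to cleave proteoglycans (Adamts1, Adamts4, Adamts5, Adamts8, Adamts9, Adamts15 and Adamts20) ranged in mean from 1.60 to 9.98 FPKM. None of these 7 passed the test, and 6 had a positive log2 fold change. Adamts5, the main aggrecanase of mouse cartilage, measured 9.16, 8.78 and 7.48 FPKM in the controls and 8.12, 9.83 and 8.27 FPKM in the mutants. The groups overlapped (log2 fold change 0.04 ± 0.22, 95% interval from -0.45 to 0.53, limma adjusted p = 0.965). Adamts4, the other well-studied aggrecanase, measured 6.42, 4.65 and 6.33 FPKM in the controls and 5.23, 4.51 and 4.19 FPKM in the mutants (log2 fold change -0.26 ± 0.26, adjusted p = 0.748). Adamts20 measured 9.05, 4.37 and 9.31 FPKM in the controls and 14.2, 11.7 and 11.3 FPKM in the mutants, without overlap (log2 fold change 0.70 ± 0.29, adjusted p = 0.333). That value was 0.39 without control 2 and -0.24 with muscle marker level as a covariate. Adamts15 also did not overlap, at 3.75 to 4.99 FPKM in the controls and 5.16 to 6.69 FPKM in the mutants. Its limma adjusted p was 0.692, and every value was below the olfactory percentile. Aggrecan itself (Acan) fell from 29.1 ± 3.38 to 11.7 ± 2.65 FPKM (SD, n = 3 each; adjusted p = 0.0370), with a log2 fold change of -1.27. Without 1 library this was -1.14 to -1.43, but the call was lost each time, with adjusted p of 0.0543 to 0.114. The call was also lost without a filter (limma adjusted p = 0.0502). It was lost as well with the replicate block, the Xist covariate and the muscle covariate (limma adjusted p of 0.104, 0.199 and 0.695), at -1.27, -1.42 and -1.67. Against control 3 alone the log2 fold change of Acan was -1.45.

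Adamts18, an enzyme with few known substrates, had the lowest fold change of all members. It measured 5.84, 5.27 and 4.95 FPKM in the controls and 1.80, 3.12 and 1.70 FPKM in the mutants, in means of 5.35 ± 0.450 and 2.21 ± 0.789 FPKM (SD, n = 3 each). All mutants lay below all controls (log2 fold change -1.01 ± 0.30, 95% interval from -1.69 to -0.33, limma adjusted p = 0.154), and every value was below the olfactory percentile. Adamts16, its closest relative in mice, had the same order at 2.35 to 2.85 and 1.17 to 1.94 FPKM (adjusted p = 0.616). The values of Adamts16 were likewise all below that percentile. Of the 3 procollagen N-proteinases, which trim fibrillar procollagens, Adamts2 was the most abundant, at 13.4, 9.92 and 11.4 FPKM in the controls and 14.3, 19.3 and 15.8 FPKM in the mutants. Its groups did not overlap (log2 fold change 0.47 ± 0.22, limma adjusted p = 0.379, and 0.08 with muscle marker level as a covariate), whereas those of Adamts3 and Adamts14 did. Adamts10, which acts on microfibrils, was the most abundant Adamts gene with a mean of 15.2 FPKM, and it measured 11.7 to 16.4 FPKM in the controls and 12.5 to 18.8 FPKM in the mutants. Adamts13, which cleaves von Willebrand factor, was at 9.52 to 19.8 and 10.4 to 14.4 FPKM.

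The Adamtsl genes held the smallest p of all members. Adamtsl5, a secreted protein that binds fibrillin microfibrils and heparin, measured 3.19, 3.66 and 3.87 FPKM in the controls and 13.99, 8.18 and 8.15 FPKM in the mutants. All mutants lay above all controls, in means of 3.57 ± 0.348 and 10.1 ± 3.36 FPKM (SD, n = 3 each) and a fold of means of 2.83 (log2 fold change 1.24 ± 0.28, 95% interval from 0.61 to 1.87, limma adjusted p = 0.0705). The 3 controls and mutant 3 lay below the olfactory percentile of their own libraries. With only genes at 5 FPKM or more in at least 3 libraries tested, its adjusted p was 0.0459, but it met that limit only through the 3 mutants, so this value is no support for a difference. Adamtsl4, which promotes fibrillin-1 microfibrils in the eye, measured 14.6, 12.3 and 16.2 FPKM in the controls and 16.7, 32.9 and 26.0 FPKM in the mutants. Mutant 1 was just above control 3 (log2 fold change 0.73 ± 0.27, 95% interval from 0.13 to 1.33, adjusted p = 0.250), and with muscle marker level as a covariate the difference was 0.27. Adamtsl1, Adamtsl2 and Adamtsl3 had means of 3.47, 1.51 and 4.24 FPKM, and their groups overlapped. Elastin (Eln), which is laid down on microfibrils, measured 11.9, 5.49 and 20.8 FPKM in the controls and 38.0, 38.4 and 66.9 FPKM in the mutants (adjusted p = 0.0632).

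Genes that regulate these enzymes were also read. Of all genes tested, 1.24% were called, and the groups did not overlap in 19.2%. An absence of calls in lists this short therefore says little about them. None of 12 inhibitors outside the Timp family was called, with a median log2 fold change of -0.03, and Tfpi2, an inhibitor of serine proteinases and some Mmp enzymes, was the only one without overlap. It was at 3.22 to 4.85 FPKM in the controls and 6.09 to 11.8 FPKM in the mutants. Reck, a membrane-anchored inhibitor of Mmp enzymes, measured 9.22 to 13.1 and 9.73 to 17.0 FPKM. None of 11 genes of proteinase activation was called, Furin being at 4.74 to 8.13 and 7.56 to 9.32 FPKM. None of 9 trafficking partners of Adam proteins was called, and 8 had a positive log2 fold change (median 0.45). Among them Rhbdf1, which carries Adam17 to the cell surface, measured 15.2 to 19.7 FPKM in the controls and 21.98 to 24.3 FPKM in the mutants, without overlap (limma adjusted p = 0.346). None of 8 genes of uptake and none of 7 astacin genes and their enhancers was called. Of 16 substrates of aggrecanases and collagenases, Acan fell and the lubricant gene Prg4 rose, from 12.1 ± 2.21 to 53.6 ± 4.86 FPKM (SD, n = 3 each; adjusted p = 0.00943). Without 1 library the adjusted p of Prg4 was 0.00855 to 0.0469, and it was 0.0541 with the replicate block, 0.106 with the Xist covariate and 0.684 with the muscle covariate. The log2 fold change of 2.07 was 2.07, 1.86 and 1.51 with the block and the 2 covariates, and 1.85 against control 3 alone. The other 14 did not pass the test, and the median over the 16 was 0.03.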

How the data were processed

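Total RNA was extracted with the miRNeasy Mini Kit, and full-length cDNA (SMART-Seq HT) was made into Nextera libraries, per the labels' protocols. Strand is not kept by this chemistry. The deposited tables hold 1 value per gene symbol, taken as FPKM made by the authors. The headers name no unit, and FPKM was inferred from the values and from Cufflinks 2.2.1, named with TopHat2 2.0.13, Bowtie2 2.2.3, SAMtools 0.1.19 and mm10 in the submitters' processing notes. The sources used here do not name the annotation or any further scaling.

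The 18715 genes reaching 1 FPKM in 3 or more libraries were tested on log2(FPKM + 1) by limma 3.58.1 in R 4.3.3 with trend, robust moderation, group as the only term and Benjamini-Hochberg adjustment over all of them, with a threshold of 0.05. The procedure was tested on simulated libraries with independent noise and with changes only in genes with a mean of at least 5 FPKM. Unequal sexes, tissue shifts and changes in weaker genes were not simulated, so that test does not cover them. Members, gene lists and tests were chosen with earlier results of these data known. Named members were the Timp genes, those without overlap, the 5 most abundant and the 3 with the smallest p per family; others were chosen after their values were seen. Positions, exon overlaps and coding sequences came from GENCODE M21. Alternatives were other scaling, filters, pseudocounts, weights and moderation, a replicate block, covariates and leaving out libraries.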

Additional observations from a re-analysis of the deposited data

How the results depend on the processing

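No member was called, in either direction, in any setting except 1. With a filter at 5 FPKM, where 34 members and fewer other genes were tested, 2 were called higher (Adam15 and Adamtsl5) and 0 lower. That filter kept Adamtsl5 through its mutants alone and removed Adamts18, which was lower in the mutants, so the split is partly set by the filter. With the replicate number as a block the count was 0, with 9 members at an unadjusted p below 0.05. The labels do not say whether same-numbered libraries are paired. Correlations of their deviations were 0.006, -0.016 and -0.009, which cannot settle this. Leaving out each library gave 0 calls each time and 6 to 10 members at an unadjusted p below 0.05. That number was 5 with the Xist covariate, 2 with the muscle covariate and 3 without controls 1 and 2, where the lone control was assumed to vary as the mutants did. Over all genes tested, 232 calls became 440 with the filter at 5 FPKM, 411 with quantile normalization, 133 without a filter, 2 with the replicate block, 2 with either covariate and 5 without controls 1 and 2. It was 13 or 20 when control 1 or control 2 was left out, 19 or 57 when mutant 1 or mutant 2 was, and 414 when mutant 3 was.

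Of 503 repeats over 30 named members, 478 kept direction and side of the threshold. The sign turned in 23 of them, over 8 members, and the cause was not tested. With the Xist covariate Adam17 was 0.26, Adamts10 -0.029 and Adamts13 0.36. With the muscle covariate Mmp9 was -0.18, Adam17 0.74, Adam2 0.11, Adam28 0.23, Adamts10 -0.0066 and Adamts20 -0.24. Without controls 1 and 2 Adam17 was 0.27, Adamts10 -0.016 and Adamts13 0.38, and with quantile normalization Mmp9 was -0.044. Over left-out libraries Mmp9 ran from -0.52 to 0.78, Adam17 from -0.17 to 0.12, Adam28 from -0.32 to 0.050, Adamts13 from -0.43 to 0.058 and Adamts5 from -0.039 to 0.093. Depth is unknown, and 51 of 83 members lay below the olfactory percentile in every library.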
